A study of Mus musculus with 79 samples.

Results

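The genes described here belong to the mouse piRNA pathway and to transposon defence: Piwil2, Mov10l1, Asz1, Tdrkh, Tdrd1, Mael, Fkbp6 and Tex19.1. They were taken as a set by their function, with earlier results of these data known, were found in the deposited expression table by symbol and are 8 of its 35230 genes. All 8 reached 1 RPKM in at least 2 of the 79 libraries and so were among the 15267 genes tested. RPKM is the number of reads scaled to the length of a gene's exons and to the depth of the library. The study followed mouse embryonic stem cells (ESC) grown in 2i/LIF, a medium that holds them in a naive state, while they were differentiated to epiblast-like cells (EpiLC) or to embryoid bodies (EB), aggregates that form several germ layers. The conditions were ESC at day 0, EpiLC at days 1 and 2, and EB at days 2, 4, 6 and 8, written ESC D0, EpiLC D1 and so on. TET KO cells lacked Tet1, Tet2 and Tet3, which oxidise 5-methylcytosine, and were set against their parental line, TET WT. DNMT KO cells lacked the DNA methyltransferase genes Dnmt1, Dnmt3a and Dnmt3b and were set against their own parental line, DNMT WT. Each genotype was 1 line, so a knockout effect and any other difference between a knockout line and its parent cannot be told apart. Of the 28 groups of genotype and condition, 23 held 3 libraries and 5 held 2, namely both KO lines at EB D2 and, in DNMT WT, EB D4, EpiLC D1 and ESC D0. Whether replicates came from separate cultures is not stated in the labels, and the p-values measure the spread between these libraries, which may be technical.

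PIWI-interacting RNAs (piRNAs) are small RNAs of germ cells. They guide PIWI proteins to transposon transcripts and, in the fetal male germ line of the mouse, direct DNA methylation to transposon promoters. The machinery is made in germ cells and is largely silent in somatic cells, where the CpG-rich promoters of several of its genes carry DNA methylation. Such germline promoters gain methylation as the epiblast leaves the naive state, the step that EpiLC cultures model, and they are demethylated in primordial germ cells.

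By role, Piwil2 (MILI, ENSMUSG00000033644, chr14:70372477-70429383, minus strand, GRCm38) is the cytoplasmic PIWI protein that binds piRNAs and cleaves their targets. Mov10l1 (ENSMUSG00000015365, chr15:88982909-89055152, plus strand) is the RNA helicase that binds piRNA precursors and is needed for their processing. Asz1 (GASZ, ENSMUSG00000010796, chr6:18050964-18109061, minus strand) is a scaffold on the outer membrane of mitochondria, where processing takes place. Tdrkh (ENSMUSG00000041912, chr3:94413273-94434668, plus strand) is a Tudor-domain protein of the same membrane that takes part in trimming the ends of the precursors. Its exons overlap those of Oaz3 on the opposite strand, and the libraries were strand-specific per the labels. Tdrd1 (ENSMUSG00000025081, chr19:56826209-56870012, plus strand) is a Tudor-domain scaffold that binds methylated arginines of Piwil2. Mael (ENSMUSG00000040629, chr1:166201201-166238747, minus strand) is a protein of germ granules needed for transposon silencing and for piRNA production in the testis. Fkbp6 (ENSMUSG00000040013, chr5:135291704-135350044, minus strand) is a co-chaperone that works with heat shock protein 90 in the loading of PIWI proteins. Tex19.1 (ENSMUSG00000039329, chr11:121146143-121148319, plus strand) limits transposons in the testis and placenta and is not itself a piRNA processing factor. It has a near copy, Tex19.2, and how the authors' counting divided reads shared by the copies is not given in the sources used here, so its level is uncertain to that extent.

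Promoter sequence is shown for 5 of the genes because they differ in where they were called higher: Mael, Mov10l1 and Tex19.1 in TET KO cells at all 7 conditions and in late DNMT KO embryoid bodies, Asz1 and Fkbp6 in DNMT KO cells and at no condition in TET KO cells. In DNMT KO, Mov10l1 was also called higher in ESC D0 and Tex19.1 in EpiLC D2. RefSeq promoters of GRCm38.p6 were matched by symbol for 7 of the 8 genes, all except Piwil2. The 250 bases before the RefSeq start were searched on both strands for CACGTG, which reads the same on both strands, and for GCGGGA or its reverse complement TCCCGC, sequences known to be bound by the MGA/MAX and E2F6 proteins that repress germline genes. The sequences read 5′ to 3′ on the strand of the gene, with these motifs in capitals and bases past the start given in the deposited table left off. They are Mael at chr1:166238748-166238994 on the minus strand, Mov10l1 at chr15:88982744-88982908 on the plus strand, Tex19.1 at chr11:121145893-121146142 on the plus strand, Fkbp6 at chr5:135350045-135350294 on the minus strand and Asz1 at chr6:18109062-18109311 on the minus strand.
Mael: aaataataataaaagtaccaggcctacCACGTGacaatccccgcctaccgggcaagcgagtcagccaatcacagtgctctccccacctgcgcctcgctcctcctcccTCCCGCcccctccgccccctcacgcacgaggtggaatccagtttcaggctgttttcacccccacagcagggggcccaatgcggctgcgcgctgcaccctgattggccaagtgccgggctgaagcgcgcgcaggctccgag
Mov10l1: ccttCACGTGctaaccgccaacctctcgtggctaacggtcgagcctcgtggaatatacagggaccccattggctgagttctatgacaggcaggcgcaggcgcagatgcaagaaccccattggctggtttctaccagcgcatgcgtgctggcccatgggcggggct
Tex19.1: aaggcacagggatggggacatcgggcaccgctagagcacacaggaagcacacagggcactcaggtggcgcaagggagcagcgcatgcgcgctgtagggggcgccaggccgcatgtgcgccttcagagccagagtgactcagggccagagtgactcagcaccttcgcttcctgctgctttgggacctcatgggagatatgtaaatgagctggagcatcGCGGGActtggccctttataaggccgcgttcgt
Fkbp6: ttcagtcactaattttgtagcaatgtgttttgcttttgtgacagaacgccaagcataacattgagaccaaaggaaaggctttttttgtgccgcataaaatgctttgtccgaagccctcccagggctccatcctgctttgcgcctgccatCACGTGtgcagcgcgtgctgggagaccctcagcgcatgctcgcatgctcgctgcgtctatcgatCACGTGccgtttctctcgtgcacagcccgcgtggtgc
Asz1: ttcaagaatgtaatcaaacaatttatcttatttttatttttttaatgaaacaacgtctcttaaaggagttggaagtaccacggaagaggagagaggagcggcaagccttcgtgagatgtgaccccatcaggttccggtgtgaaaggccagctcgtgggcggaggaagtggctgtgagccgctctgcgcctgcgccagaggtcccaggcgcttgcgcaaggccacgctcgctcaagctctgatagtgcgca
CACGTG was present in 4 of the 7 windows (Mael, Mov10l1, Tdrd1 and Fkbp6, the last of which held 2 copies) and in 6.05% of 27025 promoters searched alike. GCGGGA or TCCCGC was present in 2 of the 7 (Mael and Tex19.1) and in 16.9% of all promoters. The 2 motifs do not overlap in the sequences printed. The 7 windows held 11 to 19 CpG dinucleotides, against a median of 6 over all promoters. From 64.0% (Tdrd1) to 80.4% (Mov10l1 and Tdrkh) of all promoters held fewer, so such counts are not rare. The letters alone do not separate genes called higher in both knockouts from those called higher in DNMT KO cells only. CACGTG was found in Mael and Mov10l1 and also in Fkbp6. A match describes the sequence and is not a measured binding site.

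The libraries held 7.76 to 13.89 M reads, as recovered from the low values of the table, and 1 read on a gene of 2 kb was worth 0.0644 RPKM in the shallowest. Zeros below mean that no read was counted. Dnmt1 stood at 3.63 to 6.49 RPKM in the 20 DNMT KO libraries, against 39.4 to 63.2 RPKM in the 18 DNMT WT libraries. Over all conditions the ranges of the other deleted genes overlapped, with Dnmt3a at 0.340 to 4.94 RPKM in DNMT KO and 1.63 to 60.3 RPKM in DNMT WT, and Dnmt3b at 3.03 to 58.6 RPKM in DNMT KO and 24.03 to 382 RPKM in DNMT WT. In EpiLC D2 alone Dnmt3a had 3.77 ± 0.194 RPKM in DNMT KO and 58.3 ± 1.74 RPKM in DNMT WT (SD, n = 3 each). Dnmt3b had 33.9 ± 0.748 RPKM in DNMT KO and 211.7 ± 5.10 RPKM in DNMT WT there. Tet1 ranged over 2.52 to 13.5 RPKM in the 20 TET KO libraries and over 2.33 to 26.3 RPKM in the 21 TET WT libraries. Tet2 had 0.810 to 8.09 RPKM in TET KO and 0.771 to 12.6 RPKM in TET WT. Tet3 had 0.121 to 7.39 RPKM in TET KO and 0.268 to 8.95 RPKM in TET WT. These TET ranges overlap over all conditions. In ESC D0 Tet1 was called lower, at 8.32 ± 0.940 RPKM in TET KO and 23.6 ± 1.89 RPKM in TET WT (SD, n = 3 each). It was not called in EpiLC D2 or at EB D8. Which exons were deleted is not given in the sources used here, so the levels of Tet1, Tet2 and Tet3 do not check that label. Methyltransferase genes also moved between the TET lines. Dnmt3a was called lower in EpiLC D2, at 17.2 ± 2.91 RPKM in TET KO and 35.5 ± 5.47 RPKM in TET WT. Dnmt3b was called higher at EB D8, at 69.8 ± 10.2 RPKM in TET KO and 18.4 ± 3.19 RPKM in TET WT (SD, n = 3 each). Naive markers (Nanog, Esrrb, Klf4, Tfcp2l1 and Zfp42) summed to 1078 to 1212 RPKM in ESC D0 libraries of all 4 lines. In EB D8 libraries of the parental lines the sum was 29.0 to 31.3 RPKM in TET WT and 18.2 to 20.4 RPKM in DNMT WT, and markers of mesoderm and blood summed to 4893 to 5395 and 3089 to 3140.0 RPKM.

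The 8 genes differed widely in level. Tex19.1 was the most abundant, with a highest group mean of 179.9 ± 3.22 RPKM in TET KO EpiLC D1 (SD, n = 3), and it reached 1 RPKM in 70 of the 79 libraries. Mael peaked in EpiLC D2 in all 4 lines, and Fkbp6 was highest in ESC D0 of the DNMT lines, at 62.0 ± 2.004 RPKM in DNMT KO (SD, n = 3) and 42.2 and 41.5 RPKM in the 2 DNMT WT libraries. Piwil2 was highest in EpiLC D1 of the DNMT lines, at 24.8 ± 0.752 RPKM in DNMT KO (SD, n = 3) and 18.1 and 18.8 RPKM in the 2 DNMT WT libraries. Mov10l1 stayed at or below 10.2 RPKM and Tdrkh at or below 9.24 RPKM throughout. Tdrd1 was the lowest, with at most 3.10 RPKM, and it reached 1 RPKM in 22 libraries, none of them DNMT KO. Asz1 reached 1 RPKM in 23 libraries, which were all 20 DNMT KO libraries and 3 DNMT WT libraries, and in no library of the TET lines. With the 28 groups put in order of their mean, 9 of the 27 neighbouring groups overlapped for Tex19.1, 17 for Piwil2, 18 for Fkbp6, 20 for Mael, 22 for Tdrkh, 23 each for Mov10l1 and Asz1, and 25 for Tdrd1. Neighbours that overlap do not differ beyond the spread of their libraries. The top group stood clear of the next for all genes but Mov10l1 and Asz1. Mael, for example, had 97.2 ± 8.96 RPKM in TET KO EpiLC D2, against 48.6 ± 2.99 RPKM in DNMT KO EpiLC D2 (SD, n = 3 each).

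**Figure D1:**
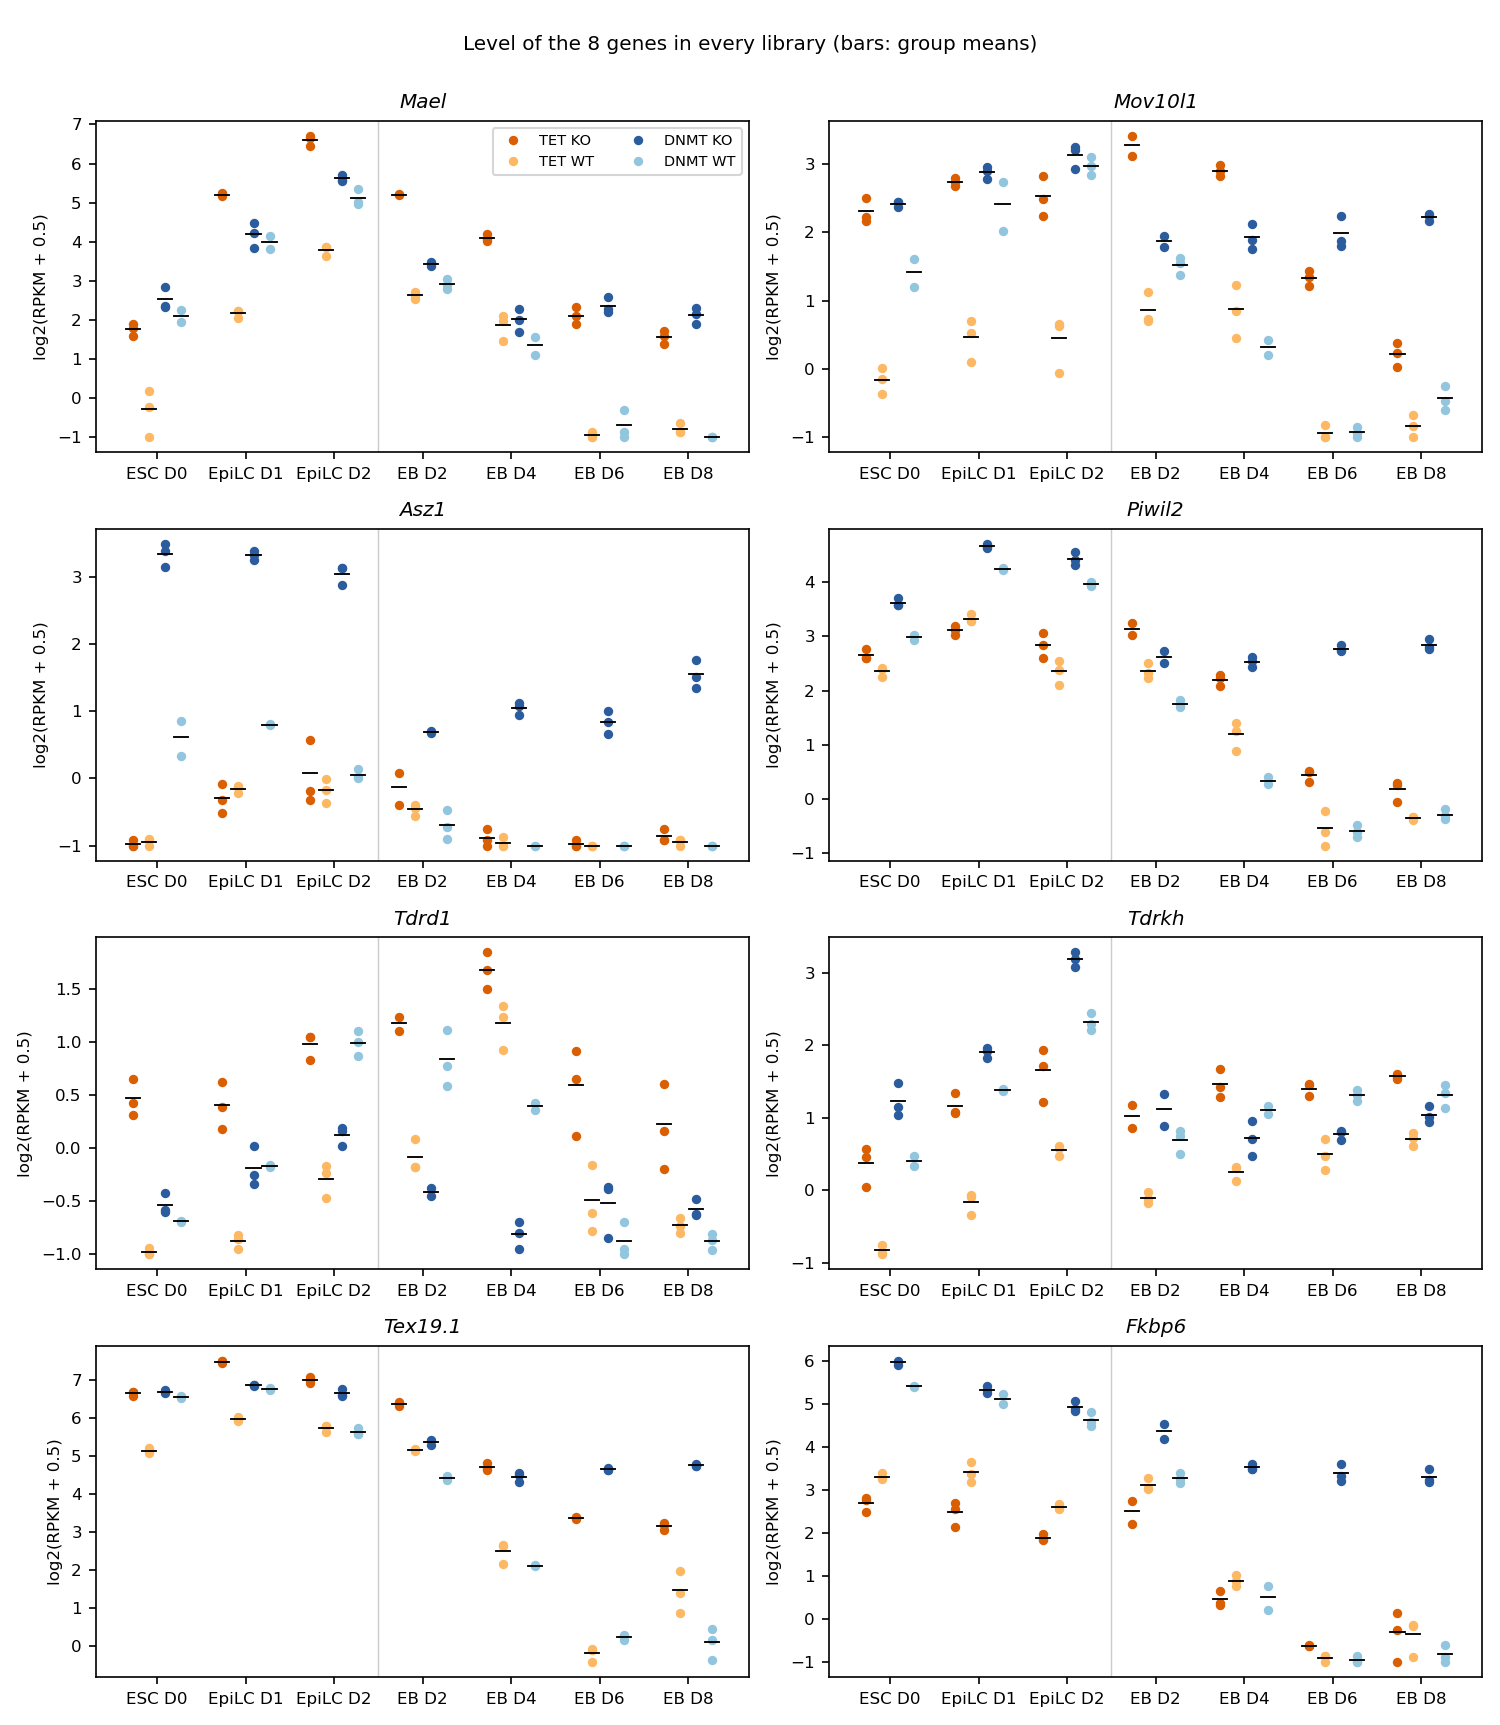
Level of each of the 8 genes as log2(RPKM + 0.5) (vertical axis) in every library (points) at the 7 conditions, coloured by line, with bars at the group means. Asz1 stood above all other lines in every DNMT KO group, with 10.7 RPKM in 1 DNMT KO ESC library, and Tex19.1 stood at 26.1 to 27.4 RPKM in DNMT KO EB D8, against 0.269 to 0.851 RPKM in DNMT WT.

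Loss of the TET enzymes was first set against TET WT, condition by condition, which asks what the genes do in cells that cannot oxidise 5-methylcytosine. A gene was called changed when limma's adjusted p over all genes was under 0.05 and the log2 change at least 1, where the log2 change is a difference of mean log2(RPKM + 0.5), a scale that understates changes of low genes. It is given with its SE. Mael, Mov10l1 and Tex19.1 were called higher in TET KO cells at all 7 conditions, Tdrd1 at 5, Tdrkh at 5 and Piwil2 at 2, whereas Asz1 and Fkbp6 were called at none. Of the 8 genes, 5 were called higher at ESC D0, where 4.61% of all genes tested were. The count was 5 at EpiLC D1 (background 3.35%), EpiLC D2 (4.8%), EB D2 (4.7%), EB D4 (7.6%) and EB D6 (3.24%), and 3 at EB D8 (5.84%). No member was called lower at any condition, where 2.72% of all such tests were. The median log2 change of the 8 genes was 1.30 at ESC D0, against 0.06 over all genes tested, and 0.89 at EB D8, against 0.11.

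Mael, the germ granule protein, had 2.99, 2.52 and 3.24 RPKM in TET KO ESC, against 0.357, 0.630 and 0 RPKM in TET WT ESC (log2 change 2.08 ± 0.24, adjusted p = 5.06e-05). In EpiLC D2, where its level was highest, it had 104, 87.2 and 99.9 RPKM in TET KO and 14.1, 14.0 and 11.9 RPKM in TET WT. At EB D2 the 2 TET KO libraries had 36.6 and 36.0 RPKM, against 5.31, 6.12 and 5.59 RPKM in TET WT (log2 change 2.58 ± 0.09, adjusted p = 4.15e-07). At EB D6, Mael stood at 3.76, 4.49 and 3.21 RPKM in TET KO, against 0, 0.0517 and 0 RPKM in TET WT, where a single read was counted in the 3 libraries (log2 change 2.97 ± 0.17, adjusted p = 7.04e-08). The groups did not overlap at any of the 7 conditions. For comparison, the share of all genes tested that were higher in every TET KO library than in every TET WT library was 35.4% in ESC, 27.2% and 27.9% in EpiLC, and 39.8%, 38.3%, 33.4% and 44.6% in EB, in order of day. In bulk samples such as these, more cells of a type that expresses a gene and more RNA of the gene per cell cannot be told apart.

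Mov10l1, the helicase of piRNA precursors, behaved alike. In EpiLC D1 it had 6.19, 5.93 and 6.46 RPKM in TET KO, against 1.13, 0.940 and 0.577 RPKM in TET WT (log2 change 2.30 ± 0.18, adjusted p = 4.78e-06). At EB D4 the values were 6.94, 7.44 and 6.56 RPKM in TET KO and 1.31, 0.862 and 1.84 RPKM in TET WT (log2 change 2.06 ± 0.18, adjusted p = 7.68e-08). The ratio of the group means was 7.03-fold in EpiLC D1 and 5.22-fold at EB D4. At EB D8 the TET KO libraries had 0.522, 0.804 and 0.676 RPKM, against 0.0583, 0.128 and 0 RPKM in TET WT, still without overlap (log2 change 1.04 ± 0.13, adjusted p = 2.14e-05). That last call was lost with every rescaling of the libraries, at 0.88 after centring on the median, and with a pseudocount of 1 RPKM, at 0.64. It was lost without TET WT replicate 3, at 0.97, and without TET KO replicate 2, at 0.95.

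Tex19.1, the transposon-limiting gene, was expressed in both lines and differed by a moderate ratio until EB D4. It had 104, 95.8 and 104 RPKM in TET KO ESC, against 34.5, 36.6 and 33.7 RPKM in TET WT ESC (log2 change 1.52 ± 0.04, adjusted p = 4.42e-09). In EpiLC D1 the values were 176, 181 and 183 RPKM in TET KO and 64.9, 62.0 and 59.9 RPKM in TET WT. The ratio of means was 2.89-fold in both conditions. At EB D6, where the gene had fallen in both lines, it had 9.98, 9.88 and 9.57 RPKM in TET KO, against 0.442, 0.239 and 0.431 RPKM in TET WT, a 26.5-fold difference (log2 change 3.57 ± 0.09, adjusted p = 2.02e-10). At EB D8 it had 7.76, 8.63 and 8.93 RPKM in TET KO and 2.13, 1.31 and 3.39 RPKM in TET WT, and the ratio was 3.71-fold. The libraries of the lines did not overlap at any condition.

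The Tudor-domain genes were low in both TET lines. Tdrd1, the Piwil2-binding scaffold, had 1.07, 0.740 and 0.845 RPKM in TET KO ESC, against 0, 0.0182 and 0 RPKM in TET WT ESC, where 1 read was counted over the 3 libraries (log2 change 1.42 ± 0.10, adjusted p = 1.08e-06). It was called at ESC D0, EpiLC D1, EpiLC D2, EB D2 and EB D6. At EB D4, where TET WT itself stood at 1.85, 1.40 and 2.03 RPKM and TET KO at 2.32, 2.70 and 3.10 RPKM, the log2 change was 0.51 and short of the threshold. The call at EB D6 (0.583, 1.38 and 1.07 RPKM in TET KO, 0.152, 0.395 and 0.0824 RPKM in TET WT, log2 change 1.08 ± 0.22, adjusted p = 0.00151) was lost without TET WT replicate 3, at 0.95, and without TET KO replicate 2, at 0.90. It was lost too after centring, at 0.97, and with the other rescalings. At EB D8 the change was 0.92, and it passed without TET KO replicate 1, at 1.12, and on recovered reads, at 2.54. With a pseudocount of 1 RPKM, which is above most values of Tdrd1, its 5 calls were lost.

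Tdrkh, the mitochondrial Tudor protein, had 0.872, 0.530 and 0.988 RPKM in TET KO ESC, against 0.0432, 0.0485 and 0.0930 RPKM in TET WT ESC (log2 change 1.19 ± 0.16, adjusted p = 1.13e-04). In EpiLC D1 it had 1.62, 2.03 and 1.59 RPKM in TET KO and 0.286, 0.436 and 0.453 RPKM in TET WT (log2 change 1.33 ± 0.11, adjusted p = 5.95e-06). It was called through EB D4, and its later changes, 0.91 on day 6 and 0.87 on day 8, fell short of the threshold, although the libraries did not overlap. Without TET KO replicate 2 the call was lost in EpiLC D2, at 0.91, and at EB D2, at 0.96. Centring the libraries on their median also removed the calls in EpiLC D2, at 0.98, and at EB D4, at 0.92, quantile normalization removed that at EB D2, at 0.98, and a pseudocount of 1 RPKM removed all 5. Without TET WT replicate 1 a call was gained at EB D6, at 1.02.

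Piwil2, the PIWI protein itself, was called at the fewest conditions among the genes that rose. It had 8.64, 7.61 and 8.13 RPKM in TET KO EpiLC D1, against 9.21, 10.1 and 9.23 RPKM in TET WT (log2 change -0.22, not called). It was called at EB D4, with 4.17, 3.75 and 4.40 RPKM in TET KO and 2.14, 1.34 and 1.87 RPKM in TET WT (log2 change 1.02 ± 0.15, adjusted p = 3.26e-05), and at EB D6, with 0.924, 0.918 and 0.746 RPKM in TET KO and 0.157, 0.0508 and 0.356 RPKM in TET WT (log2 change 1.01 ± 0.15, adjusted p = 1.39e-04). Both calls lie at the threshold and were lost with every rescaling, at 0.73 and 0.90 after centring on the median, and with a pseudocount of 1 RPKM. That at EB D4 was lost without TET WT replicate 2, at 0.88, or TET KO replicate 3, at 0.98. That at EB D6 was lost without TET WT replicate 1, at 0.99, TET WT replicate 2, at 0.86, TET KO replicate 1, at 0.97, or TET KO replicate 2, at 0.98. The genes of chromosome 14, which carries Piwil2, had a median change that differed from that of all genes by -0.30 at EB D4 and by -0.09 at EB D6. With each library centred on the genes of the same chromosome, the change of Piwil2 was 0.99 at EB D4 and 0.96 at EB D6, and at EB D2, where it was 0.78 and not called, it was 1.13 and called.

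Asz1, the mitochondrial scaffold, was near 0 in both TET lines. The highest value was in TET KO EpiLC D2, where the libraries had 0.991, 0.302 and 0.382 RPKM, against 0.279, 0.490 and 0.384 RPKM in TET WT (log2 change 0.21). Over the 7 conditions its log2 change lay between -0.15 and 0.31. Fkbp6, the co-chaperone, was called at no condition. Its log2 change was negative from ESC D0 to EB D4 and 0.24 at EB D6 and 0.06 at EB D8. It had 6.32, 5.14 and 6.50 RPKM in TET KO ESC, against 10.1, 9.01 and 9.17 RPKM in TET WT ESC (log2 change -0.62 ± 0.08, adjusted p = 8.10e-05), and 5.99, 3.90 and 5.40 RPKM in TET KO EpiLC D1, against 9.85, 12.0 and 8.63 RPKM in TET WT (log2 change -0.94 ± 0.15, adjusted p = 4.46e-04). The EpiLC D1 change passed the threshold without TET WT replicate 3, at -1.04, or TET KO replicate 1, at -1.05. At EB D6, with 0.147, 0.157 and 0.147 RPKM in TET KO and 0.0524, 0 and 0.0511 RPKM in TET WT, it was called higher without a pseudocount, at 1.59. Markers of other cell types moved between the TET lines too. The 5 naive markers summed to 272 to 301 RPKM in TET KO EpiLC D1, against 553 to 566 RPKM in TET WT. At EB D8 they summed to 44.2 to 57.3 RPKM in TET KO, against 29.0 to 31.3 RPKM in TET WT, but moved both ways. Nanog and Esrrb, 2 of the 5, were called higher, and 2, Klf4 and Tfcp2l1, were called lower. The 5 EpiLC markers (Fgf5, Pou3f1, Otx2, Dnmt3b and Sox3) summed to 109.6 to 140.8 RPKM in TET KO EB D8, against 20.9 to 27.7 RPKM in TET WT. All 5 were called higher there. In EpiLC D2 their sums were 41.5 to 57.15 RPKM in TET KO and 62.1 to 77.0 RPKM in TET WT, with 2 called lower. At EB D4, 3 were called lower. The 6 markers of mesoderm and blood (T, Mesp1, Kdr, Gata1, Hbb-bh1 and Tal1) moved both ways. At EB D4 they summed to 389 to 416 RPKM in TET KO, against 9.39 to 14.97 RPKM in TET WT, with 2 called higher and 2 lower. At EB D6 the sums were 37.7 to 39.1 RPKM in TET KO and 103 to 113 RPKM in TET WT. At EB D8 they were 40.3 to 52.9 RPKM in TET KO and 4893 to 5395 RPKM in TET WT, where most of the TET WT sum was Hbb-bh1, an embryonic globin with 11.3 ± 4.50 RPKM in TET KO and 5074 ± 253 RPKM in TET WT (SD, n = 3 each). On that day 3 of the 6 were called lower and T, an early mesoderm factor, was called higher, with 12.3 ± 1.90 RPKM in TET KO and 0.265 ± 0.202 RPKM in TET WT. The 8 markers of primordial germ cells summed to 36.0 to 41.4 RPKM in TET KO EB D4, against 11.6 to 18.7 RPKM in TET WT, with 3 of the 7 tested called higher, and to 32.4 to 39.7 RPKM in TET KO EB D8, against 19.4 to 23.1 RPKM in TET WT, with 2 called higher. Before EB D4 these markers moved both ways. In ESC D0 1 was called higher and 1 lower, and in EpiLC D1 1 and 2. In EpiLC D2 2 were called higher and 1 lower, and at EB D2 3 and 2. None was called at EB D6. Of all genes tested, 3.24% to 7.6% were called higher per condition. Called lower were 1.87% to 3.28% up to EB D4 and 632 of 15267 at EB D8. The part of all these markers in the results on the 8 genes was not tested.

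**Figure D2:**
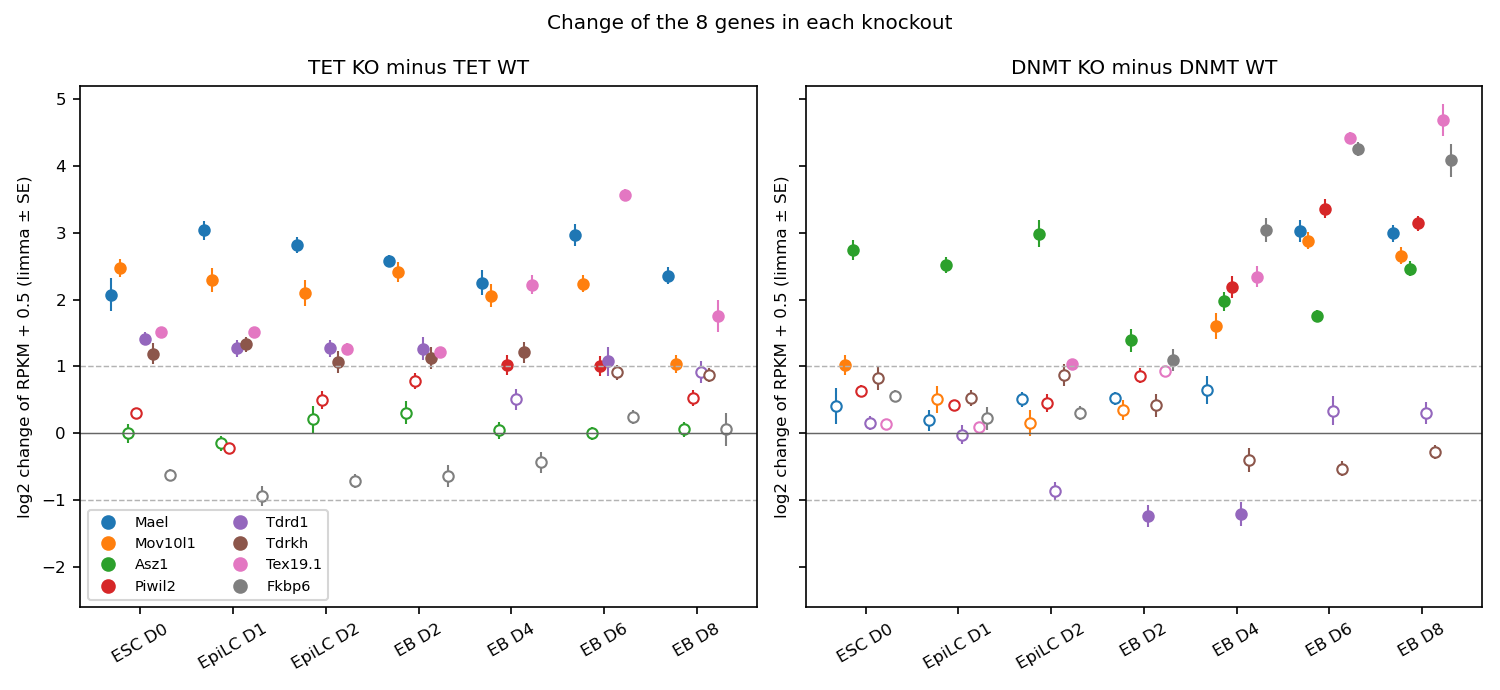
Log2 change of the 8 genes on log2(RPKM + 0.5), TET KO minus TET WT (left) and DNMT KO minus DNMT WT (right), at the 7 conditions; points are limma's estimates, bars ± SE, filled points called changes and dashed lines the threshold of 1. Mael, Mov10l1 and Tex19.1 lie above 1 in TET KO at every condition, whereas the DNMT KO changes of Tex19.1, Fkbp6 and Piwil2 reach 4.69, 4.26 and 3.36 in late embryoid bodies.

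Loss of the DNA methyltransferases was set against DNMT WT in the same way, which asks what the genes do in cells that cannot maintain or place 5-methylcytosine. Asz1 was called higher in DNMT KO cells at all 7 conditions. At EB D4 Mov10l1, Piwil2, Tex19.1 and Fkbp6 were called higher, and at EB D6 and EB D8, when these 4 and Mael stood below 1 RPKM in every DNMT WT library, all 5 were. Of the 8 genes, 2 were called higher at ESC D0 (background 0.511%), 1 at EpiLC D1 (0.478%), 2 at EpiLC D2 (1.09%) and 2 at EB D2 (0.937%). In later embryoid bodies the count was 5 on day 4 (4.51%), 6 on day 6 (11.1%) and 6 on day 8 (9.76%). Tdrd1 was called lower at EB D2 (background 0.203%) and at EB D4 (1.31%). The median log2 change of the 8 genes was 0.60 at ESC D0, against 0.02 over all genes tested, and 2.83 at EB D8, against 0.01.

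Asz1 had 10.7, 9.91 and 8.32 RPKM in DNMT KO ESC, against 0.764 and 1.31 RPKM in DNMT WT ESC, a 9.31-fold difference (log2 change 2.74 ± 0.15, adjusted p = 4.09e-06). In EpiLC D2 it had 6.84, 8.21 and 8.26 RPKM in DNMT KO and 0.515, 0.604 and 0.5001 RPKM in DNMT WT (log2 change 2.99 ± 0.20, adjusted p = 2.58e-06). In embryoid bodies the DNMT KO level was lower but DNMT WT lost the transcript: at EB D8 DNMT KO had 2.04, 2.34 and 2.90 RPKM and no read was counted in any DNMT WT library. Against 3 reads over the DNMT WT group, DNMT KO was at least 34.2-fold higher on day 4, at least 43.1-fold higher on day 6 and at least 83.4-fold higher on day 8. The libraries of the lines did not overlap at any condition. The share of all genes tested that were higher in every DNMT KO library than in every DNMT WT library was 25.4% in ESC, 21.1% and 18.6% in EpiLC, and 19.9%, 31.8%, 39.6% and 35.3% in EB, in order of day. The call at EB D2 (log2 change 1.39), where DNMT KO has 2 libraries, was lost when the DNMT lines were fitted alone, with adjusted p = 0.0529.

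Tex19.1 was not called in the DNMT lines in ESC or EpiLC D1 and stood far apart in late embryoid bodies. It had 117, 118 and 115 RPKM in DNMT KO EpiLC D1, against 110.2 and 107 RPKM in DNMT WT (log2 change 0.10, not called). In EpiLC D2 it had 96.0, 109 and 97.2 RPKM in DNMT KO and 47.1, 47.1 and 53.1 RPKM in DNMT WT (log2 change 1.03 ± 0.09, adjusted p = 1.55e-05), a call at the threshold that was lost without DNMT KO replicate 2, at 0.97, and after centring, at 0.99. At EB D4 the values were 19.5, 23.0 and 22.2 RPKM in DNMT KO and 3.81 and 3.85 RPKM in DNMT WT. At EB D8 Tex19.1 had 26.2, 26.1 and 27.4 RPKM in DNMT KO, against 0.605, 0.269 and 0.851 RPKM in DNMT WT, a 46.2-fold difference and the largest fitted change among the 8 genes at that condition (log2 change 4.69 ± 0.24, adjusted p = 1.99e-09). The EB D8 mean was 25.6% of the ESC D0 mean in DNMT KO and 0.614% in DNMT WT.

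Fkbp6 had 63.6, 59.7 and 62.5 RPKM in DNMT KO ESC, against 42.2 and 41.5 RPKM in DNMT WT ESC (log2 change 0.56 ± 0.09, adjusted p = 0.00184, not called). At EB D4 it had 10.8, 11.7 and 10.8 RPKM in DNMT KO and 1.20 and 0.668 RPKM in DNMT WT, an 11.9-fold difference (log2 change 3.04 ± 0.18, adjusted p = 3.52e-09). At EB D8 the values were 8.96, 8.59 and 10.7 RPKM in DNMT KO and 0.162, 0 and 0.0478 RPKM in DNMT WT (log2 change 4.09 ± 0.25, adjusted p = 1.17e-08). The libraries of the lines did not overlap at any condition, and the log2 change was larger from EB D4 on than before. The EB D2 call (log2 change 1.09) was lost without DNMT KO replicate 2, at 0.92, and when the DNMT lines were fitted alone, with adjusted p = 0.0652.

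Piwil2 was higher in every DNMT KO library at all 7 conditions but was called only from EB D4 on. In EpiLC D1 it had 24.1, 25.6 and 24.6 RPKM in DNMT KO, against 18.1 and 18.8 RPKM in DNMT WT (log2 change 0.42). At EB D6 the values were 6.12, 6.62 and 6.19 RPKM in DNMT KO and 0.152, 0.219 and 0.118 RPKM in DNMT WT, a 38.7-fold difference (log2 change 3.36 ± 0.15, adjusted p = 9.64e-10). At EB D8 DNMT KO kept 56.8% of its ESC D0 mean, against 4.25% in DNMT WT.

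Mov10l1 had 4.69, 4.93 and 4.95 RPKM in DNMT KO ESC, against 2.54 and 1.79 RPKM in DNMT WT ESC (log2 change 1.02 ± 0.15, adjusted p = 0.00149), a call that was lost without DNMT WT replicate 2, at 0.82, with quantile normalization, at 0.94, and with a pseudocount of 1 RPKM, at 0.90. It was not called in EpiLC or at EB D2. At EB D8 it had 3.97, 4.31 and 4.21 RPKM in DNMT KO, against 0.158, 0.344 and 0.221 RPKM in DNMT WT (log2 change 2.66 ± 0.13, adjusted p = 1.61e-09). The DNMT KO level at EB D8 was 85.7% of that in ESC D0, against 11.1% in DNMT WT. Mael was not called in the DNMT lines until EB D6. In EpiLC D2 it stood at 52.0, 47.4 and 46.4 RPKM in DNMT KO, against 39.95, 31.9 and 30.8 RPKM in DNMT WT (log2 change 0.51). At EB D8 it had 3.23, 3.93 and 4.43 RPKM in DNMT KO and no read in the 3 DNMT WT libraries, so that it was at least 81.3-fold higher in DNMT KO, against 3 reads over the DNMT WT group.

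The Tudor genes had few calls. Tdrd1 had 0.0168, 0.118 and 0.0724 RPKM in DNMT KO EB D4, against 0.785 and 0.845 RPKM in DNMT WT, and so was lower (log2 change -1.21 ± 0.18, adjusted p = 7.98e-05). It was also lower at EB D2, with 0.230 and 0.271 RPKM in DNMT KO and 1.21, 1.004 and 1.67 RPKM in DNMT WT (log2 change -1.24 ± 0.17, adjusted p = 0.00441), a call that was lost when the DNMT lines were fitted alone, with adjusted p = 0.0777. Both calls were lost with a pseudocount of 1 RPKM. In EpiLC D2 the change of -0.87 fell short of the threshold (on recovered reads it was -1.32 and called) without overlap of the libraries, at 0.637, 0.512 and 0.615 RPKM in DNMT KO and 1.497, 1.65 and 1.33 RPKM in DNMT WT. At EB D6 it had 0.274, 0.264 and 0.0545 RPKM in DNMT KO and 0.0164, 0 and 0.114 RPKM in DNMT WT, and at EB D8 0.215, 0.148 and 0.144 RPKM in DNMT KO and 0.0693, 0.0132 and 0.0462 RPKM in DNMT WT. These changes, 0.34 and 0.30, were not called, but without a pseudocount they were 2.45 and 2.25 and called higher, as they were on recovered reads. Tdrkh was called at no condition. In ESC its change of 0.82 was 1.07 and called with a pseudocount of 0.1 RPKM, and it was called on recovered reads. Its log2 change was 0.87 in EpiLC D2, with 8.67, 7.99 and 9.24 RPKM in DNMT KO and 4.13, 4.41 and 4.95 RPKM in DNMT WT. At EB D6 it was -0.53, with 1.12, 1.25 and 1.26 RPKM in DNMT KO and 1.98, 2.12 and 1.84 RPKM in DNMT WT.

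Markers of undifferentiated and of germ cells stood high in the same DNMT KO embryoid bodies. The 5 naive markers, all of which had reads, summed to 286 to 300.1 RPKM in DNMT KO EB D4, 321 to 336 RPKM at EB D6 and 313 to 323 RPKM at EB D8. In DNMT WT they summed to 172 to 174, 26.3 to 29.8 and 18.2 to 20.4 RPKM at the same days. Of these 5, 4 were called higher in DNMT KO on day 4, 4 on day 6 and 3 on day 8. The 5 EpiLC markers, among them the deleted Dnmt3b, summed to 60.4 to 67.9 RPKM in DNMT KO EB D8, against 32.3 to 34.2 RPKM in DNMT WT. On day 8, 4 of them were called higher. On day 6, 3 were called higher and 1 lower, and on day 4 none was higher and 2 were lower. The 8 markers of primordial germ cells summed to 85.6 to 91.98 RPKM in DNMT KO EB D8, against 18.1 to 20.01 RPKM in DNMT WT, and 6 of the 7 tested were called higher there, and each of the 8 had reads in both lines. On day 6, 4 were called higher and 1 lower, and on day 4, 3 were called higher. Dppa3, a germ cell and naive-state factor among these markers, had 45.1 ± 2.38 RPKM in DNMT KO and 0.842 ± 0.113 in DNMT WT at EB D8 (SD, n = 3 each). The 6 markers of mesoderm and blood summed to 52.1 to 56.2 RPKM in DNMT KO EB D4, against 27.1 to 44.9 RPKM in DNMT WT, with 4 called higher and 1 lower. At EB D6 the sums were 22.5 to 29.6 RPKM in DNMT KO and 244 to 274 RPKM in DNMT WT, with all 6 called lower. At EB D8 they were 79.2 to 88.4 RPKM in DNMT KO and 3089 to 3140.0 RPKM in DNMT WT, with 3 called lower, and most of the sum in DNMT WT was Hbb-bh1, with 59.8 ± 3.92 RPKM in DNMT KO and 3060.0 ± 24.2 RPKM in DNMT WT (SD, n = 3 each). Of all genes tested, 4.51%, 11.1% and 9.76% were called higher in DNMT KO on days 4, 6 and 8. Called lower were 1.31% on day 4, 1050 of 15267 on day 6 and 9.1% on day 8. The part of all these markers in the higher levels of the 8 genes was not tested.

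The knockouts were then compared with each other as the DNMT KO effect minus the TET KO effect at each condition, in 1 fit. Over the 8 genes and 7 conditions, 19 differences were called positive (background 5.96% of all such tests) and 19 negative (7.56%). Mael had a smaller change in DNMT KO than in TET KO in ESC, in EpiLC and at EB D2 and EB D4, with differences from -2.85 in EpiLC D1 to -1.60 at EB D4. At EB D6 the Mael effects were 3.03 in DNMT KO and 2.97 in TET KO, and the difference of 0.06 was not called. Mov10l1 differed likewise until EB D2, by -2.07 there, and Tdrd1 until EB D4, by -2.51 at EB D2. Tdrkh differed from EB D4 on, by -1.62 at EB D4.

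Asz1 and Fkbp6 differed the opposite way at all 7 conditions. The Asz1 difference was 2.74 in ESC and 2.41 at EB D8, with its smallest value, 1.08, at EB D2. That value was lost without DNMT WT replicate 2, at 0.98, or TET KO replicate 2, at 0.84. The Fkbp6 difference was 1.178 in ESC and 4.03 at EB D8. In EpiLC D2 it was 1.01 and was lost without any 1 of 6 libraries, at 0.93 to 0.99 (DNMT WT replicates 2 and 3, DNMT KO replicate 1, TET WT replicate 2, and TET KO replicates 1 and 3), and in EpiLC D1 it was lost without TET KO replicate 2, at 0.99. Piwil2 differed only from EB D4 on, by 1.17 at EB D4 and 2.62 at EB D8. Tex19.1 differed by -1.37 in ESC and by 2.94 at EB D8, so that the larger effect was that of TET KO in ESC and that of DNMT KO at EB D8. Mov10l1 at EB D8 differed by 1.62, but the value was 0.49 without a pseudocount and 0.21 on recovered reads, and was called in neither.

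**Figure D3:**
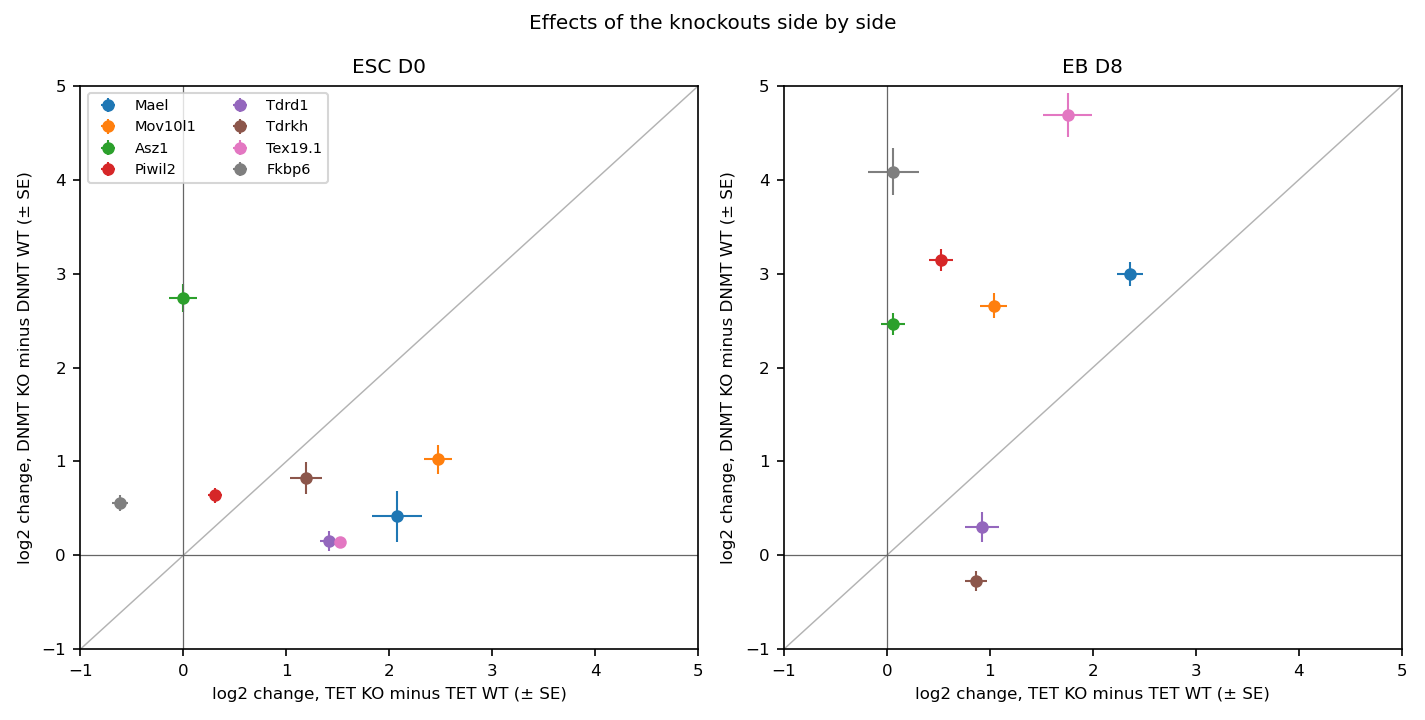
DNMT KO change (vertical axis) against TET KO change (horizontal axis) of the 8 genes in ESC D0 and at EB D8, as log2 changes of RPKM + 0.5 with bars ± SE and the line of equal change. In ESC D0 Mael, Mov10l1, Tex19.1, Tdrd1 and Tdrkh lie below the line and Asz1 stands alone at 2.74 on the DNMT KO axis, while at EB D8 6 of the 8 genes lie above the line.

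The knockout effect at EpiLC D2 and at EB D8 was also set against that in ESC D0. In the DNMT lines the EB D8 effect was larger than the ESC effect for 5 genes (background 10.8%) and smaller for Tdrkh (background 9.73%). The difference was 4.55 for Tex19.1, 3.53 for Fkbp6, 2.58 for Mael, 2.51 for Piwil2 and 1.64 for Mov10l1. For Tdrkh it was -1.10, and -0.97 and not called without DNMT KO ESC D0 replicate 1. At EpiLC D2 the call was for Tdrd1, at -1.03 (background 0.531%), and it was lost at -0.97 without DNMT KO EpiLC D2 replicate 2, DNMT WT EpiLC D2 replicate 2 or DNMT KO ESC D0 replicate 2. In the TET lines Mov10l1 at EB D8 was the single call, at -1.43 (background 6.86%). Its sign depended on the pseudocount, with 0.16 without one, -0.99 with 0.1 RPKM and 0.39 on recovered reads, none of them called. Mael in EpiLC D2, at 0.74, passed without TET WT ESC D0 replicate 3, at 1.03.

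Each KO line had a different parent, and the parents themselves differed in these genes. In TET WT, set against DNMT WT, 6 of the 8 genes were called lower in ESC D0 (background 4.66%), 4 in EpiLC D1 (6.96%), 6 in EpiLC D2 (12.5%) and none in embryoid bodies. In ESC D0 the log2 difference was -2.40 for Mael, -2.10 for Fkbp6, -1.57 for Mov10l1, -1.51 for Asz1, -1.41 for Tex19.1 and -1.23 for Tdrkh. Mael, for example, had 0.357, 0.630 and 0 RPKM in TET WT ESC, against 3.36 and 4.23 RPKM in DNMT WT ESC. Fkbp6 had 10.1, 9.01 and 9.17 RPKM in TET WT ESC, against 42.2 and 41.5 RPKM in DNMT WT ESC. In TET KO ESC the values of Mael given above lay between those of the parents, and those of Fkbp6 lay below both. Mov10l1 had 4.19, 3.997 and 5.19 RPKM in TET KO ESC, 0.275, 0.404 and 0.507 RPKM in TET WT ESC and 2.54 and 1.79 RPKM in DNMT WT ESC. TET KO was not tested against DNMT WT. At EB D8 Tex19.1 was called higher in TET WT, at 1.34 (background 1.09%). In the comparison of the knockouts with each other, the genes deleted and the parental line cannot be told apart.

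Set against ESC D0 of the same line, the 8 genes split by course. All comparisons of a line share its ESC D0 libraries, and the values are therefore given side by side. Mael rose in EpiLC in every line, and in the TET lines it was also called higher at EB D2 and EB D4. Its means there were 36.3 and 16.6 RPKM in TET KO, against 2.92 RPKM in ESC D0. In TET WT they were 5.67 and 3.15 RPKM, against 0.329 RPKM in ESC D0. The DNMT lines had no such call for Mael in embryoid bodies. In EpiLC D2 its log2 change was 4.84 in TET KO, 4.10 in TET WT, 3.11 in DNMT KO and 3.01 in DNMT WT. Tdrkh rose in EpiLC D2 in every line as well, by 1.27 in TET KO, 1.39 in TET WT, 1.97 in DNMT KO and 1.92 in DNMT WT. Tdrd1 was called higher at 3 conditions in DNMT WT, with its largest rise, 1.68, in EpiLC D2. At EB D4 it rose by 2.12 in TET WT and by 1.21 in TET KO. In DNMT KO it was called at no condition. The calls in all over 6 later conditions were 9 higher and 9 lower of 48 in TET KO (background 12.2% and 11.0%), 11 and 9 in TET WT (12.0% and 10.6%), 4 and 14 in DNMT KO (11.8% and 7.22%) and 8 and 21 in DNMT WT (13.2% and 10.7%).

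Tex19.1 and Fkbp6 fell in embryoid bodies of all 4 lines by EB D4. At EB D8 the change of Tex19.1 was -3.51 in TET KO, -3.74 in TET WT, -1.94 in DNMT KO and -6.49 in DNMT WT. The change of Fkbp6 was -3.02 in TET KO, -3.70 in TET WT, -2.66 in DNMT KO and -6.19 in DNMT WT. In DNMT KO both genes thus fell, and less far than in DNMT WT, as the test of the later effect against that in ESC showed. Piwil2 at EB D8 fell in TET KO (-2.49), TET WT (-2.71) and DNMT WT (-3.28), and its change in DNMT KO was -0.77, short of the threshold. In DNMT KO Piwil2 was called lower at EB D4 (-1.09) and higher in EpiLC D1 (1.04). Mov10l1 was called at no condition in DNMT KO, with changes between -0.56 and 0.70, whereas in DNMT WT it rose in EpiLC D2 (1.57) and fell at EB D8 (-1.84). Asz1 fell in DNMT KO at every embryoid body stage, by 2.65 at EB D2 and 1.80 at EB D8 on the log2 scale. Of the calls near the threshold, Mov10l1 in TET WT was lost at EB D2 (1.02 with all libraries) without EB D2 replicate 3 or ESC D0 replicate 1, and at EB D4 (1.01) without EB D4 replicate 3 or ESC D0 replicate 1, at 0.82 to 0.92. In DNMT WT it was lost at EB D4 (-1.09) without EB D4 replicate 2, at -0.98, or ESC D0 replicate 1, at -0.88. Tdrkh in TET KO was lost at EB D4 and EB D6 without ESC D0 replicate 2, at 0.95 and 0.89, and Fkbp6 in DNMT KO in EpiLC D2 (-1.04) without EpiLC D2 replicate 2.

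Other piRNA pathway genes were counted from a list of 25, of which 22 were tested (Tdrd6, Tdrd9 and Henmt1 were too low). In TET KO, 6 of the 22 were called higher in ESC D0, then 3, 3, 6, 5, 7 and 5 at EpiLC D1, EpiLC D2, EB D2, EB D4, EB D6 and EB D8, where 4.61%, 3.35%, 4.8%, 4.7%, 7.6%, 3.24% and 5.84% of all genes tested were, in the same order. Called lower were 3 (Morc1, Prmt5 and Dnmt3l) in EpiLC D2 (background 3.1%) and 1 at EB D2 (2.71%). The germ cell helicase Ddx4 had 37.8 ± 1.43 RPKM in TET KO and 9.78 ± 1.09 in TET WT in EpiLC D2 (SD, n = 3 each, log2 change 1.90). Tdrd12, needed for secondary piRNA biogenesis, had 19.7 ± 1.03 RPKM in TET KO and 5.12 ± 0.504 in TET WT in ESC D0 (1.85). Morc1, needed for transposon methylation in male germ cells, was lower, with 3.91 ± 0.311 RPKM in TET KO and 18.2 ± 1.95 in TET WT in EpiLC D2 (-2.08), and so was Prmt5, the arginine methyltransferase that modifies PIWI proteins, with 34.3 ± 3.60 RPKM in TET KO and 86.1 ± 4.51 in TET WT (-1.32).

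In DNMT KO, 1 of the 22 was called higher in ESC D0, 3 in EpiLC D2, and 6, 12 and 13 in EB on days 4, 6 and 8, but none in EpiLC D1 or at EB D2. The shares of all genes tested at these 7 conditions, from ESC D0 to EB D8, were 0.511%, 0.478%, 1.09%, 0.937%, 4.51%, 11.1% and 9.76%. Dnmt3l was called lower in ESC D0 (background 0.524%), and Spocd1 and Tdrd7 at EB D8 (9.1%). At EB D8, Gpat2, a mitochondrial factor of piRNA biogenesis, had 19.0 ± 0.652 RPKM in DNMT KO and 0.388 ± 0.162 in DNMT WT (SD, n = 3 each, log2 change 4.47), and Morc1 had 13.3 ± 1.175 RPKM in DNMT KO and 0.238 ± 0.0606 in DNMT WT (4.22). Dnmt3l, the cofactor of germline methylation, had 72.6 ± 1.76 RPKM in DNMT KO and 1.17 ± 0.0922 in DNMT WT at EB D8 (5.46), but in ESC D0 it had 4.69 ± 0.531 RPKM in DNMT KO and 26.3 ± 0.683 in DNMT WT (SD, n = 3 and 2, -2.37). The median change of the list at EB D8 was 1.70 in DNMT KO and 0.24 in TET KO, against 0.01 and 0.11 over all genes tested.

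A list of 14 other germline genes known to be controlled by promoter methylation had 6, 4, 7, 6, 6, 9 and 2 members called higher in TET KO from ESC D0 to EB D8, and 4, 2, 7, 4, 10, 13 and 13 in DNMT KO, beside the shares of all genes just given. At EB D8 the 2 of 14 in TET KO stood against 5.84%, and the 13 of 14 in DNMT KO against 9.76%. In TET KO, 2, 2, 3, 2 and 1 of them were called lower from ESC D0 to EB D4 and none later, against 2.17%, 3.28%, 3.1%, 2.71% and 1.87% of all genes tested, and in DNMT KO none was. Dazl, an RNA-binding protein of germ cells, had 21.3 ± 0.9496 RPKM in DNMT KO and 0.124 ± 0.0297 in DNMT WT at EB D8. Of 10 repressors of germline genes, none was called in TET KO. In DNMT KO, L3mbtl2, a subunit of the repressor complex that holds MGA, MAX and E2F6, was the single one called higher. It was called at EB D6 (background 11.1%) and at EB D8 (9.76%), so 1 of 10 was near the share of all genes. At EB D8 it had 25.7 ± 1.65 RPKM in DNMT KO and 8.72 ± 0.249 in DNMT WT. The lists were chosen with earlier results of these data known, and their counts are descriptions.

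**Figure D4:**
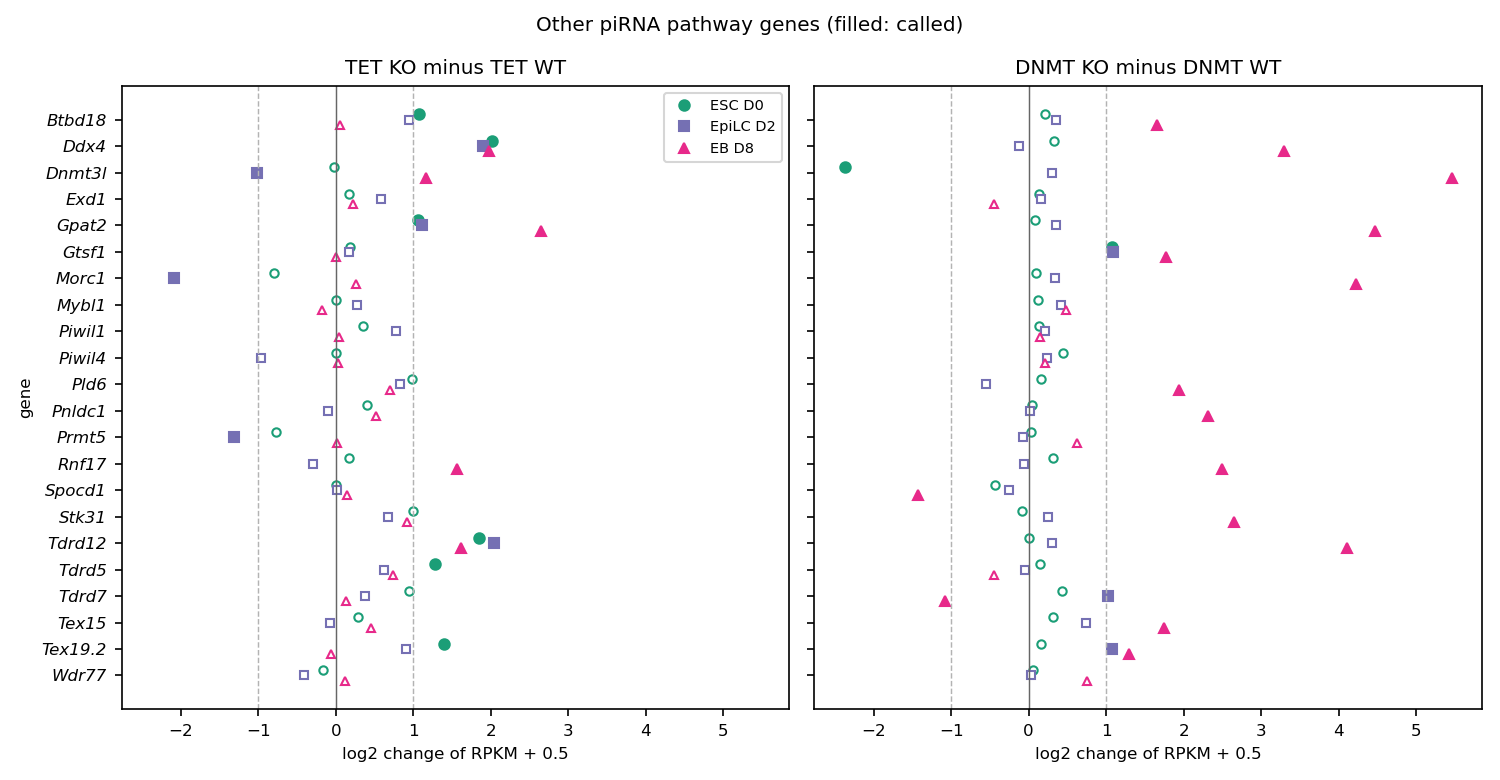
Log2 change of RPKM + 0.5 of the 22 other piRNA pathway genes tested, TET KO minus TET WT (left) and DNMT KO minus DNMT WT (right), in ESC D0, EpiLC D2 and EB D8, with called changes filled and dashed lines at the threshold of 1. At EB D8 13 of the 22 genes were called higher in DNMT KO and 5 in TET KO.

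Group means of the 8 genes were compared across the 28 groups on the log2 scale, as a description, since groups share lines and days. Pearson's r between members ran from -0.222 (Asz1 with Tdrd1) to 0.918 (Piwil2 with Tex19.1) over the 28 pairs of genes, with a median of 0.530. Piwil2 and Fkbp6 had r = 0.908. Tdrd1 and Asz1 were thus the least alike of the set, the one never at 1 RPKM in DNMT KO and the other nowhere at 1 RPKM in the TET lines. Among all genes tested, the 3 whose pattern was most like that of each member were named. They were Sohlh2, Stk31 and Ddx43 for Piwil2 (r = 0.963, 0.951 and 0.949), and Stk31, Syce1 and Jade1 for Tex19.1 (r = 0.968, 0.951 and 0.943). For Mov10l1 they were Slc25a31, Prr23a1 and Gpat2 (r = 0.934 to 0.871), and for Mael Meioc, Rhd and Cbwd1 (r = 0.910 to 0.892). For Asz1 they were Tktl2, Pet2 and AV320801 (r = 0.974 to 0.924), and for Fkbp6 En2, Sarm1 and Zp3 (r = 0.966 to 0.945). The patterns of Tdrd1 (Evpl, Ccdc40 and Rad21l, r = 0.914 to 0.785) and Tdrkh (Mecr, Plekhg4 and Dgat2, r = 0.807 to 0.771) had less close matches.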

How the data were processed

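RNA was measured in 79 libraries of mouse ESC, EpiLC and EB. Libraries kept the strand and were enriched with oligo-dT, per the labels' protocols. The tools were Trim Galore 0.6.1, cutadapt 1.18 and HISAT2 2.1.0, and the build GRCm38, per the submitters' processing notes. What counted the reads, and on which annotation, is not given in the sources used here. Values were deposited by the authors as log2 RPKM in a single table. In it, low values fell on steps of whole reads, a gene without a read carrying the value of 0.9 reads. Of the deposited values between 1 and 100 reads, 97.1% were whole within a tolerance of 0.1, and these gave the depth of 7.76 to 13.89 M reads per library (median 11.16 M). Gene lengths could not be recovered for 22 genes.

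The 35269 entries gave 35230 genes after 39 duplicates of an identifier were left out. A minimum of 1 RPKM in 2 or more libraries left 15267 genes to test. The models were fitted on log2(RPKM + 0.5) by limma 3.58.1 under R 4.3.3, with its trend and robust options. Each KO comparison, the difference between KO effects and the comparison of parents were fitted on all 4 genotypes at a condition. Changes against ESC D0, and differences of a KO effect from that in ESC D0, used the libraries of all 4 genotypes at the pair of conditions. Benjamini-Hochberg adjustment ran over all genes tested, and a call needed an adjusted p below 0.05 together with a log2 change of 1 or more. Bounds on folds against groups without a read use 3 reads over the group.

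The 8 genes, the gene lists and the tests were chosen with earlier results of these data known. The text names all 8 genes, the 3 genes most like each by Pearson's r over 28 group means, and from each other list the genes called with the largest changes at ESC D0, EpiLC D2 and EB D8, from which examples were taken. Alternatives were pseudocounts of 0.1 and 1 RPKM and none, a filter on 10 libraries, centring, quantile normalization, chromosome centring, limma-voom on the recovered reads, a replicate block, a fit of the groups alone and leaving out each library. Data were simulated with the depths and means of 4 comparisons. Changes of 2 and 3 on the log2 scale were put into genes with a mean of at least 1 RPKM. Such changes were called in the right direction in 95% to 100% of genes per comparison and size. In each comparison 1 to 5 unchanged genes were called. The simulated spread beyond counting noise was fixed, the same for every gene, and was not taken from these libraries. Recovery in genes below 1 RPKM, where Asz1 and Tdrd1 stood in most libraries, was not tested. Neither was that of smaller changes, such as those near the threshold of 1. One DNMT WT EpiLC D1 column could be matched to its group only and entered the fits as an unnumbered replicate. Figures were drawn with matplotlib 3.10.9 in Python 3.11.15 (numpy 2.4.6, pandas 2.3.3).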

Additional observations from a re-analysis of the deposited data

Results flagged for a closer look

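The results below stand out because the effect of one knockout differed from that of the other by a test of the difference itself, in limma, with an adjusted p under 0.05 and a size of at least 1. Each value is the DNMT KO effect minus the TET KO effect on the log2 scale. In ESC D0 it was -1.66 for Mael, -1.45 for Mov10l1, 2.74 for Asz1, -1.26 for Tdrd1, -1.37 for Tex19.1 and 1.178 for Fkbp6. In EpiLC D1 it was -2.85 for Mael, -1.79 for Mov10l1, 2.67 for Asz1, -1.30 for Tdrd1, -1.42 for Tex19.1 and 1.16 for Fkbp6, and in EpiLC D2 -2.31 for Mael, -1.95 for Mov10l1, 2.78 for Asz1, -2.14 for Tdrd1 and 1.01 for Fkbp6. At EB D2 it was -2.06 for Mael, -2.07 for Mov10l1, 1.08 for Asz1, -2.51 for Tdrd1 and 1.73 for Fkbp6. At EB D4 it was -1.60 for Mael, 1.93 for Asz1, 1.17 for Piwil2, -1.72 for Tdrd1, -1.62 for Tdrkh and 3.48 for Fkbp6. At EB D6 it was 1.76 for Asz1, 2.35 for Piwil2, -1.45 for Tdrkh and 4.02 for Fkbp6, and at EB D8 1.62 for Mov10l1, 2.41 for Asz1, 2.62 for Piwil2, -1.14 for Tdrkh, 2.94 for Tex19.1 and 4.03 for Fkbp6. The TET KO and DNMT KO lines have different parents, which themselves differed in ESC and EpiLC.

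The following stand out because a knockout effect differed between a later condition and ESC D0 by the same kind of test. The effect of DNMT KO at EB D8 minus that in ESC D0 was 2.58 for Mael, 1.64 for Mov10l1, 2.51 for Piwil2, 4.55 for Tex19.1, 3.53 for Fkbp6 and -1.10 for Tdrkh. The effect of DNMT KO in EpiLC D2 minus that in ESC D0 was -1.03 for Tdrd1. The effect of TET KO at EB D8 minus that in ESC D0 was -1.43 for Mov10l1, a value that depended on the pseudocount. Groups of 2 or 3 libraries were too small for a test of single outlying libraries.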

How the results depend on the processing

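Of 12872 values of single genes under the alternatives, 12489 kept their side of the threshold, 140 lost the call in the same direction and 241 gained one. The sign of a called value turned in 2: the EB D8 minus ESC D0 change of the TET KO effect on Mov10l1, -1.43, was 0.16 without a pseudocount and 0.39 with voom on recovered reads, neither called, and the cause was not tested. The sign also turned in 145 values that were not called. Calls over all conditions moved by more than 1.5 times as follows, and the cause was not tested. The 33 calls in TET KO became 20 with a pseudocount of 1 RPKM. The 17 calls between the parents became 26 with a pseudocount of 0.1 RPKM, 27 with none and 28 with voom on recovered reads. The 20 calls against ESC D0 in TET WT became 33, 37 and 35 under the same settings. The single call for the change of the TET KO effect became 4, 4 and 4 under these and 2 with a pseudocount of 1 RPKM. Depth limits low values, with 1 read on 2 kb worth 0.0644 RPKM in the shallowest library. Asz1, whose DNMT KO effect at EB D8 minus that in ESC D0 was -0.27, stood at 1.17, 3.25 and 4.16 with a pseudocount of 0.1 RPKM, with none and with voom, and was then called. Mov10l1 at EB D8 had a difference between the knockout effects that lost its call without a pseudocount and with voom, and that of Tdrkh lost it with a pseudocount of 1 RPKM and with each rescaling. Centring moved the TET KO changes by up to -0.298 at EB D4, and the 33 calls became 27, or 26 with quantile normalization and 28 with chromosome centring.

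Leaving out 1 library gave 31 to 34 calls in TET KO, 25 to 26 in DNMT KO (26 with all libraries), 37 to 38 for the difference of effects (38), 17 to 18 between parents, and against ESC D0 17 to 19 in each KO line (18 and 18), 18 to 20 for TET WT and 28 to 30 for DNMT WT (29). For the change of an effect it gave 1 to 2 in TET KO and 6 to 7 in DNMT KO (7). Where a group kept 1 library, that library was assumed to vary like the other groups.

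Replicate numbers are shared between groups, but of 36 pairs of same-numbered libraries 4 correlated above 0.1 in their deviations (median 0.0045, range -0.241 to 0.289), and 14 correlated best with their own number, so the numbers were not taken to pair libraries. With the replicate number as a block the calls were 33 in TET KO, 25 in DNMT KO (Mov10l1 in ESC D0 was at 0.95 with adjusted p = 0.00509 and was not called), 38 for the difference, 17 between parents, 19, 20, 19 and 30 against ESC D0 in TET KO, TET WT, DNMT KO and DNMT WT, and 1 and 7 for the change of the TET KO and DNMT KO effects. A fit of only the groups compared was not run for the difference of effects, which needs all 4.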
